A study of Mus musculus with 26 samples.

Results

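Translational efficiency (TE), the footprints of a gene relative to its mRNA, was compared between cells exposed to hydrogen peroxide (H2O2) for 2 h and control cells. The comparison used 8 of the 26 libraries of the series, chosen by their labels: 2 footprint and 2 RNA libraries of H2O2 at 2 h, and 2 footprint and 2 RNA libraries of the control. It covered 10457 genes with enough counts in both kinds of library. All libraries came from NIH3T3, an established line of mouse embryonic fibroblasts, and the sources used here do not give the H2O2 dose. The control is shared with cells exposed to KCl, which raises the osmotic pressure of the medium, so changes at the later H2O2 time (7 h) and under KCl (2 h) rest on the same 4 control libraries. RNA libraries held polyA-selected mRNA, and footprint libraries held the mRNA fragments that ribosomes protect from nuclease.

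TE was tested as an interaction: the log2 change of footprints minus the log2 change of RNA. A negative value therefore arises where footprints fell without RNA, and equally where RNA rose more than footprints. Each library is scaled to its own total, so TE is relative to the other genes of the same cells and says nothing of the total rate of protein synthesis. As background, oxidants activate kinases that phosphorylate the initiation factor eIF2, which lowers initiation on most mRNAs and favours a few whose upstream open reading frames otherwise hold ribosomes back. Oxidants also act on mTOR, the kinase that controls mRNAs beginning with a terminal oligopyrimidine (TOP) tract, among them those of ribosomal proteins. Immediate early genes are transcribed within minutes of a stimulus from already present factors.

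Footprint libraries held 3925402 and 3603755 counts in the control and 1460751 and 5168537 counts at 2 h of H2O2. RNA libraries held 30541457 to 45244430 counts. Log2 counts per 1000000 (CPM) of replicates correlated at r = 0.975 (control) and 0.961 (H2O2) in footprints and at 0.998 in RNA, across genes. Footprint replicates thus correlated less than RNA replicates, and the first H2O2 footprint replicate was the shallowest library. The part of each kind of library in the error of TE was not measured. Of 9 fibroblast markers 8 were above 1 TPM (transcripts per 1000000) in all 4 RNA libraries, and Lum was at or under 0.1 TPM. Of 12 markers of other cell types, 9 were at or under 1 TPM in all 4 libraries, and their summed level was 24.98 to 25.5 TPM in the control and 52.9 to 53.3 TPM under H2O2; Cd68 alone went from 9.98 and 9.59 to 29.59 and 28.03 TPM. Cdkn2a, a locus described as deleted in NIH3T3, had 366 and 394 CPM in control RNA. These values are at odds with that description, and the identity of the cells was not tested.

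TE differed from control for 1242 genes at an adjusted p under 0.05 (edgeR quasi-likelihood test). It was higher for 408 genes, 3.9% of those tested, and lower for 834 genes, 7.98%. A fit with limma voom that gave footprint and RNA libraries separate weights called 177 genes higher (1.69%) and 519 lower (4.96%), and both fits shared 168 higher and 497 lower genes. The count rested in part on single libraries: it was 633 and 729 without either control RNA library, 613 without the second H2O2 RNA library and 1865 without the second H2O2 footprint library. It was 578 when the 12 other libraries of the experiment no longer helped to estimate the spread. Genes below are called by the edgeR fit, and calls that the weighted fit did not make are named as such.

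Most TE calls accompanied a change in RNA that footprints did not match. RNA was higher for 3675 of 13199 genes (27.8%) and lower for 3552 (26.9%), whereas footprints were higher for 122 of 10516 genes (1.16%) and lower for 89 (0.846%). Of the 834 genes with lower TE, RNA was higher for 586, lower for 27 and not called for 221, and footprints were lower for 67, higher for 25 and not called for 742. Of the 408 genes with higher TE, RNA was lower for 320 and footprints were higher for 28. The footprint counts were the least stable: 45 genes were called from the 4 footprint libraries alone, 50 and 44 without either control footprint library, and 140 without the first H2O2 footprint library.

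**Figure D1:**
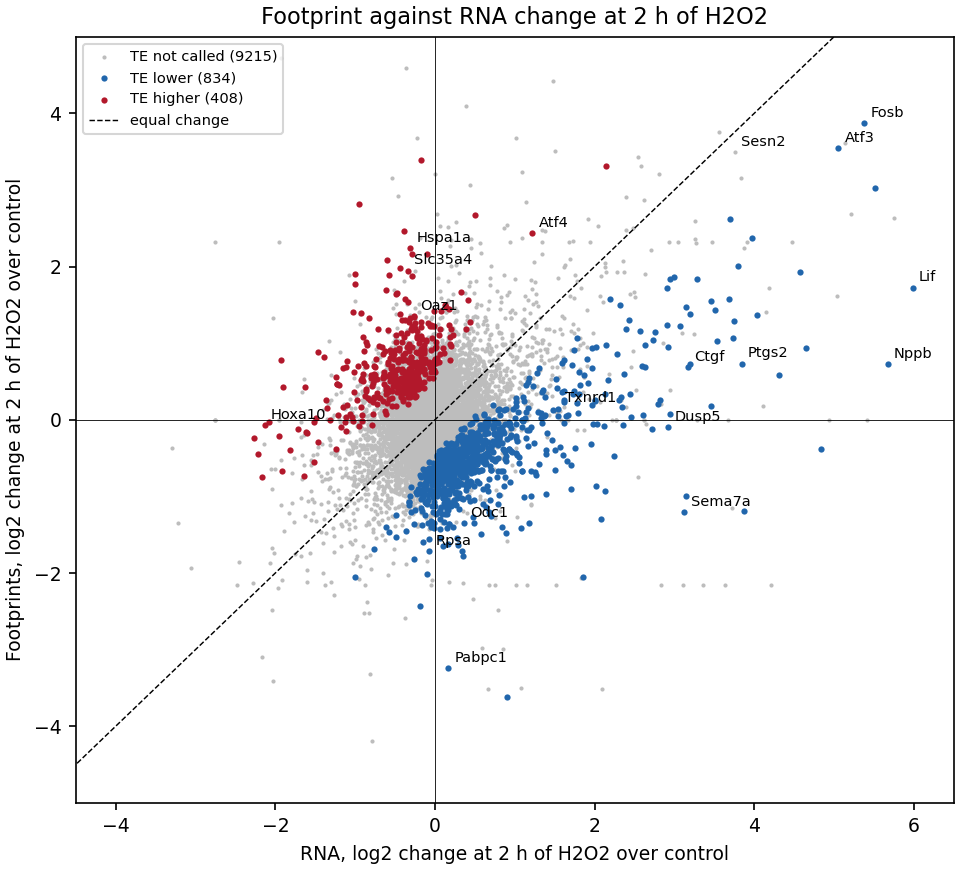
Log2 change of footprints (vertical axis) against log2 change of RNA (horizontal axis) at 2 h of H2O2 over control, 1 point per gene, with 834 genes of lower TE in blue, 408 of higher TE in red and the dashed line at equal change (10 genes lie outside the axes). Strongly induced mRNAs such as Lif and Ptgs2 lie far right of the line, while Pabpc1 lies below 0 with nearly no RNA change.

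The larger the RNA rise, the lower the TE. Among genes with at least 20 control footprint counts, 295 had an RNA rise of at least 1 on the log2 scale, with a median TE change of -1.11 and 157 called lower. With an RNA rise of at least 3 there were 30 genes, with a median TE change of -2.14, a median RNA change of 3.61 and a median footprint change of 1.41, and 25 were called lower. The RNA change is subtracted in the TE value, so this relation is in part built in. Genes with an RNA fall of at least 1 numbered 187, with a median TE change of 0.66 and 43 called higher. The median over all genes tested was -0.02.

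Immediate early genes had the lowest median TE of the lists examined. Of 51 tested, 29 were called lower and 2 higher, with a median TE of -1.14, a median RNA change of 2.40 and a median footprint change of 1.22. RNA was called higher for 47 of them and footprints for 29, so the median gain in footprints was below that in RNA. The weighted fit called 27 lower and none higher, and leaving out any single library left 22 to 30 called lower; without the second H2O2 footprint library 6 were also called higher. The 2 called higher, Gadd45a and Gadd45g, were not called by the weighted fit.

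Lif, which encodes the cytokine leukemia inhibitory factor, had 49.4 and 30.7 footprint CPM in the control and 73.1 and 186 CPM under H2O2. Its RNA rose from 13.5 and 17.6 CPM to 1024 and 992 CPM. Footprints thus rose by 1.72 on the log2 scale and RNA by 5.98, and TE changed by -4.27 ± 0.44 (SE; adjusted p = 1.54e-05, edgeR). Ptgs2, the cyclooxygenase of prostaglandin synthesis, had 1387 and 1423 footprint CPM in the control and 1700 and 2965 CPM under H2O2. Its RNA rose from 131 and 138 CPM to 1898 and 2069 CPM, and TE changed by -3.15 ± 0.28 (adjusted p = 4.7e-06, edgeR). The footprint groups did not overlap for either gene, and the footprint change of Ptgs2, 0.73 on the log2 scale, was not called.

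For Dusp5, Sema7a, Areg, Aldh1a3 and Rgs16 no footprint change was called although RNA rose. Dusp5, a phosphatase of the MAP kinase ERK, had 94.0 and 150 footprint CPM in the control and 103 and 124 CPM under H2O2, while its RNA went from 7.46 and 8.72 CPM to 62.1 and 63.4 CPM (TE -3.04 ± 0.28). Sema7a, a membrane-anchored semaphorin, had 103 and 48.6 footprint CPM in the control and 16.9 and 44.3 CPM under H2O2, with RNA rising from 2.12 and 2.27 CPM to 21.1 and 18.4 CPM (TE -4.25 ± 0.48). The EGF receptor ligand Areg (TE -3.65 ± 0.43), the retinaldehyde dehydrogenase Aldh1a3 (-3.20 ± 0.48) and the G protein regulator Rgs16 (-4.21 ± 0.66) had called RNA rises of 4.32, 3.46 and 3.15 and uncalled footprint changes of 0.58, 0.18 and -0.99. Ctgf, a matricellular protein, had the highest counts of this kind, with 1782 and 1677 footprint CPM in the control, 2739 and 2823 CPM under H2O2, and RNA going from 62.4 and 73.0 CPM to 603 and 655 CPM (TE -2.53 ± 0.24, adjusted p = 5.36e-06, edgeR). Myc, the growth-promoting transcription factor, went from 314 and 296 to 925 and 901 footprint CPM and from 35.6 and 41.8 to 511 and 515 RNA CPM (TE -2.15 ± 0.29).

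Nppb, the natriuretic peptide B gene, had the lowest TE value by the rule for named genes, -4.88 ± 0.81, but its control RNA libraries held 5 and 2 counts. The size of that value is therefore poorly determined. Ccdc88c (-4.64 ± 0.53), a scaffold of Wnt signalling, held 1 and 3 footprint counts under H2O2 against 37 and 24 in the control. Ptpn22 (-3.99 ± 0.75), a tyrosine phosphatase, held 1 and 3 against 5 and 15, and its call was lost without the second control footprint library (-2.91, adjusted p = 0.0605, edgeR). Itga2 (-2.90 ± 0.65), an integrin subunit, held 1 and 12 against 21 and 6, and its call was lost without the first control footprint library (-1.81, adjusted p = 0.196, edgeR). Itga2 was also lost with only the 8 libraries and on the log2(TPM + 1) scale. The other 10 of the 12 largest falls were called under all 19 alternative settings.

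Several classical immediate early genes kept pace with their RNA. They are named here after their values were seen. Fos, a subunit of the transcription factor AP-1, had 10.7 and 6.7 footprint CPM in the control and 81.9 and 53.1 CPM under H2O2, and its RNA went from 4.08 and 4.23 CPM to 21.5 and 23.6 CPM. Its TE change was 0.40 ± 0.35, not called (adjusted p = 0.496, edgeR). Junb had a TE change of 0.04 ± 0.25 and Egr1 of 0.68 ± 0.33, neither of them called, with footprints rising from 210 and 247 to 1400 and 1144 CPM for Junb and from 164 and 101 to 1465 and 1167 CPM for Egr1. Fosb (-1.54 ± 0.38) and Egr2 (-2.03 ± 0.60) were called lower, but Fosb not by the weighted fit and Egr2 under only 9 of 19 alternatives.

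The control ratios of footprints to RNA stood apart for many of these genes. Divided by the mean RNA CPM of the same condition, Ptgs2 footprints were at 10.3 and 10.6 in the control and between 0.857 and 2.36 in the 8 footprint libraries of the stressed cells. Lif was at 3.18 and 1.98 in the control and between 0.0725 and 0.434 in the other 8 libraries. In 24 of the 51 immediate early genes (47.1%) both control ratios were above all 8 stress ratios, against 564 of all 10457 genes (5.39%). RNA is the divisor, so an RNA rise under stress by itself lowers the stress ratios. Among genes with 20 or more control footprint counts, the share was 37.6%, 52.4% and 73.3% at RNA rises of at least 1, 2 and 3. TE of the list relative to the same control was also lower at 7 h of H2O2 (median -0.67) and at 2 h of KCl (median -0.76). The 2 control footprint libraries enter each of these comparisons, and their part in the values was not tested.

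**Figure D2:**
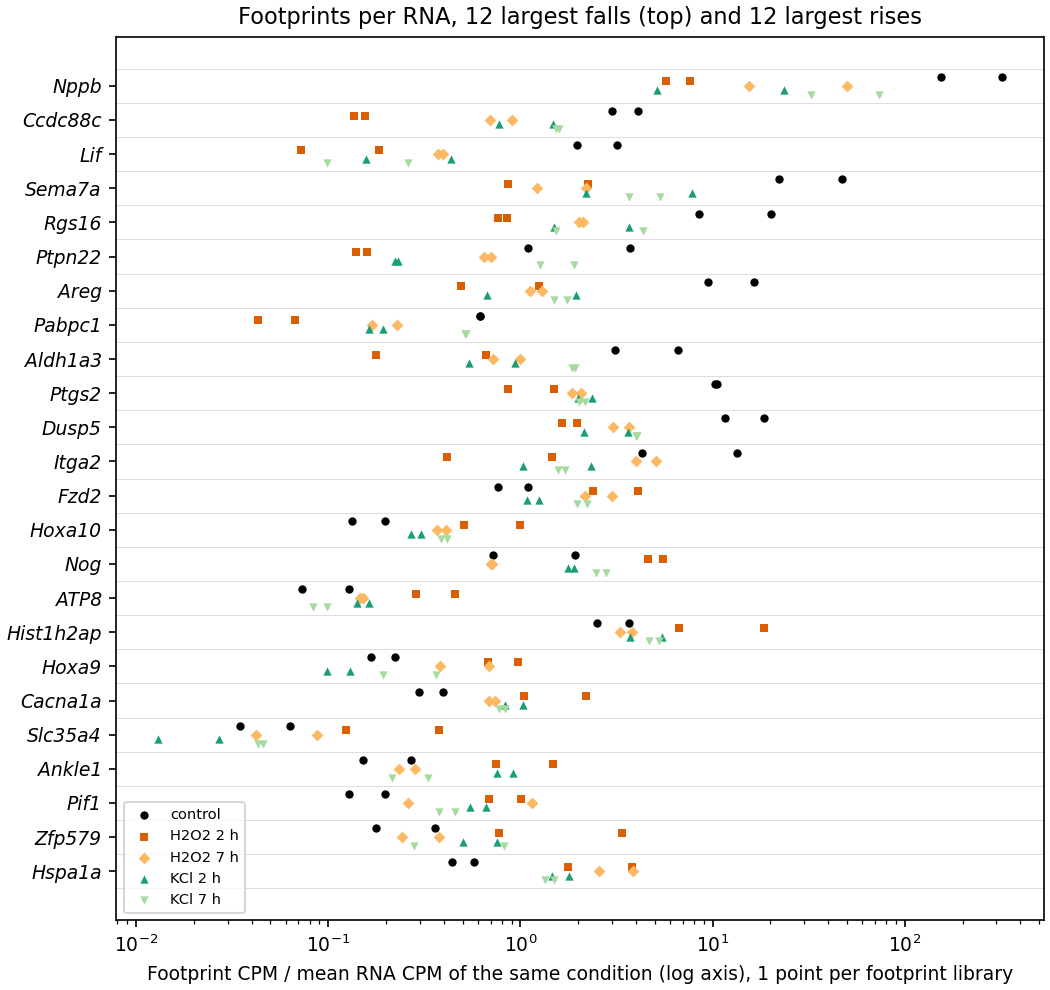
Footprint CPM divided by the mean RNA CPM of the same condition (log axis), 1 point per footprint library, for the 12 largest falls and 12 largest rises of TE at 2 h of H2O2. For Ptgs2 and Lif the 2 control points lie right of all 8 stress points, and for Slc35a4 and ATP8 the 2 points of H2O2 at 2 h lie right of the other 8.

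Among the named genes, Pabpc1 had the largest fall on a message whose RNA was not called changed. Pabpc1 encodes the main cytoplasmic polyA-binding protein, which bridges the mRNA tail and the cap-binding complex, and its mRNA carries a TOP tract. It had 785 and 783 footprint CPM in the control and 63.6 and 98.6 CPM under H2O2, while RNA was at 1220 and 1329 CPM in the control and 1375 and 1562 CPM under H2O2. Footprints fell by 3.24 on the log2 scale, RNA changed by 0.16, and TE changed by -3.43 ± 0.24 (adjusted p = 3.99e-07, edgeR). Its footprint to RNA ratio was 0.616 and 0.615 in the control, 0.0433 and 0.0671 after 2 h of H2O2, 0.229 and 0.169 after 7 h, and 0.192 and 0.163 after 2 h of KCl. The fall was larger than at 7 h of H2O2 (difference -1.80 ± 0.24, adjusted p = 0.000887, edgeR) and than at 2 h of KCl (difference -1.64 ± 0.24, adjusted p = 0.00135, edgeR).

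In a list of 10 polyA-binding and LARP proteins, added after values had been seen, 5 were called lower and none higher, in both fits. By edgeR the 5 are 50% of the list, against 7.98% of all genes. The median TE change was -0.82, and it ran from -1.08 to -0.63 when single libraries were left out. Pabpc4, a paralog of Pabpc1, had 154 and 247 footprint CPM in the control and 58.9 and 62.6 CPM under H2O2 (TE -2.09 ± 0.29, adjusted p = 0.000243, edgeR). Larp1, which binds TOP mRNAs when mTOR is inactive, had 163 and 186 CPM in the control and 89.4 and 105 CPM under H2O2 (TE -1.03 ± 0.21). Larp4 and Larp4b, which bind polyA tails, had TE changes of -0.87 ± 0.23 and -0.77 ± 0.22, and Larp4 was called in 15 of 19 alternatives. RNA of these 4 genes changed by 0.34, 0.16, 0.58 and 0.41. The nuclear Pabpn1 was at 0.11 ± 0.29 and not called.

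Ribosomal protein mRNAs, the largest class of TOP mRNAs, were mostly below 0 in TE, with calls no more frequent than over all genes. Of 78 tested, 6 were called lower and none higher, with a median TE change of -0.22 (range -1.68 to 0.46), and 62 were below 0. The 6 are 7.69% of the list, near the 7.98% of all genes called lower. The count of called genes was 14 without the second H2O2 footprint library and 4 without the second control footprint library, the first H2O2 footprint library or any 1 RNA library. Rpsa, the small-subunit protein that is also known as the laminin receptor precursor, led with 1242 and 1781 footprint CPM in the control and 437 and 482 CPM under H2O2. Its RNA was at 1270 and 1205 CPM and then at 1222 and 1198 CPM, and TE changed by -1.68 ± 0.22 (adjusted p = 0.000168, edgeR). Rpl12 (-1.29 ± 0.28), Rps20 (-1.14 ± 0.27) and Rps12 (-1.004 ± 0.22) followed, all with RNA changes between -0.13 and 0.04. Rpl12 went from 554 and 502 to 142 and 269 footprint CPM, and its call was lost when only the 8 libraries entered the fit (adjusted p = 0.0598, edgeR).

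Of 16 other TOP mRNAs, 15 had a TE change below 0 and 3 were called lower: Pabpc1, Tpt1 and Eef1b2. Leaving out single libraries gave 2 to 7 called lower, with 7 without the second H2O2 footprint library. Tpt1, the translationally controlled tumor protein, went from 1377 and 1391 to 601 and 805 footprint CPM with RNA at 1513, 1468, 1638 and 1646 CPM (TE -1.11 ± 0.20, adjusted p = 0.00166, edgeR). Eef1b2, a subunit of elongation factor 1, changed by -0.75 ± 0.20 and was called in 11 of 19 alternatives. The elongation factors Eef2 and Eef1a1 had values of -0.32 ± 0.18 and -0.38 ± 0.17, neither called. The fall of ribosomal protein mRNAs was smaller than at 7 h of H2O2, where their median TE change was -1.07. In the direct test 40 of 78 had higher TE at 2 h than at 7 h and none lower, beside 2.06% of all genes higher.

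The TOP tract is a C at the transcription start followed by an unbroken run of pyrimidines, and start sites were read from RefSeq to see where the annotated start falls relative to such a run. Below are 10 bases before and 20 bases from the annotated start for the 3 ribosomal protein genes of lowest TE that the promoter table held, and for Rps6 and Tpt1, with the longest pyrimidine run in capitals. They are given 5′ to 3′ on the coding strand of GRCm38.p6, which is the mm10 assembly, and the annotated start is base 11 of each window.
Rpsa: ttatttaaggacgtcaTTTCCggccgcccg
Rpl12: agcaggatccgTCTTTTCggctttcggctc
Rps12: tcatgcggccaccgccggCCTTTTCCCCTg
Rps6: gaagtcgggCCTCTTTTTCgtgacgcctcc
Tpt1: cgctgacgacagTTCCgggggagccgcgga
The windows lie at chr9:120127756-120127785 (plus strand), chr2:32961702-32961731 (plus), chr10:23787190-23787219 (minus), chr4:86857348-86857377 (minus) and chr14:75845246-75845275 (plus). In Rps6 the run of 10 bases starts 1 base before the annotated start, in Rpl12 the run of 7 starts at the second base of the annotated transcript, and in Rps12 the run of 11 starts at the ninth.

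A start base C followed by 4 or more bases that are each C or T, read on the coding strand only, was present at 2.51% of all 32851 listed starts. It was present in 14 of the 57 tested ribosomal protein genes that the table held. Over all genes, 249 tested genes with such a start had a median TE change of 0.01, with 10 called higher and 15 lower, and 7985 genes without it had a median of -0.02, with 315 higher and 631 lower. With 6 or more pyrimidines the median was -0.07 over 117 genes. These letters are a description of the annotated start and not a map of the start used in these cells.

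Ribosome biogenesis factors, which make and process ribosomal RNA in the nucleolus, had lower TE in 30 of 70 genes. The list was added after values had been seen. Of 70 tested, 30 were called lower and none higher, with a median TE change of -0.58, a median footprint change of -0.20 and a median RNA change of 0.28. RNA was called higher for 48 of them and footprints were called lower for 1. The weighted fit called 29 lower, and leaving out a single library left 18 to 30, with 18 without the second H2O2 RNA library and 19 without either control RNA library.

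Ppan, a factor of large-subunit assembly, had 102 and 108 footprint CPM in the control and 60.9 and 59.8 CPM under H2O2, with RNA going from 44.2 and 45.4 to 71.3 and 62.0 CPM (TE -1.38 ± 0.19, adjusted p = 0.000208, edgeR). Gnl3, the nucleolar GTPase nucleostemin, had 121 and 144 CPM in the control and 108 and 96.8 CPM under H2O2, and its RNA went from 133 and 125 to 246 and 258 CPM (TE -1.35 ± 0.21). Sdad1 (-1.31 ± 0.19) and Noc3l (-1.11 ± 0.16) followed. For all 4 genes both H2O2 footprint values were below both control values, and RNA rose. Ncl, the abundant nucleolar protein nucleolin, went from 1410 and 1377 to 715 and 983 footprint CPM (TE -1.13 ± 0.24). In the direct test against KCl 17 of 70 were lower under H2O2 and none higher, beside 2.1% of all genes lower.

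**Figure D3:**
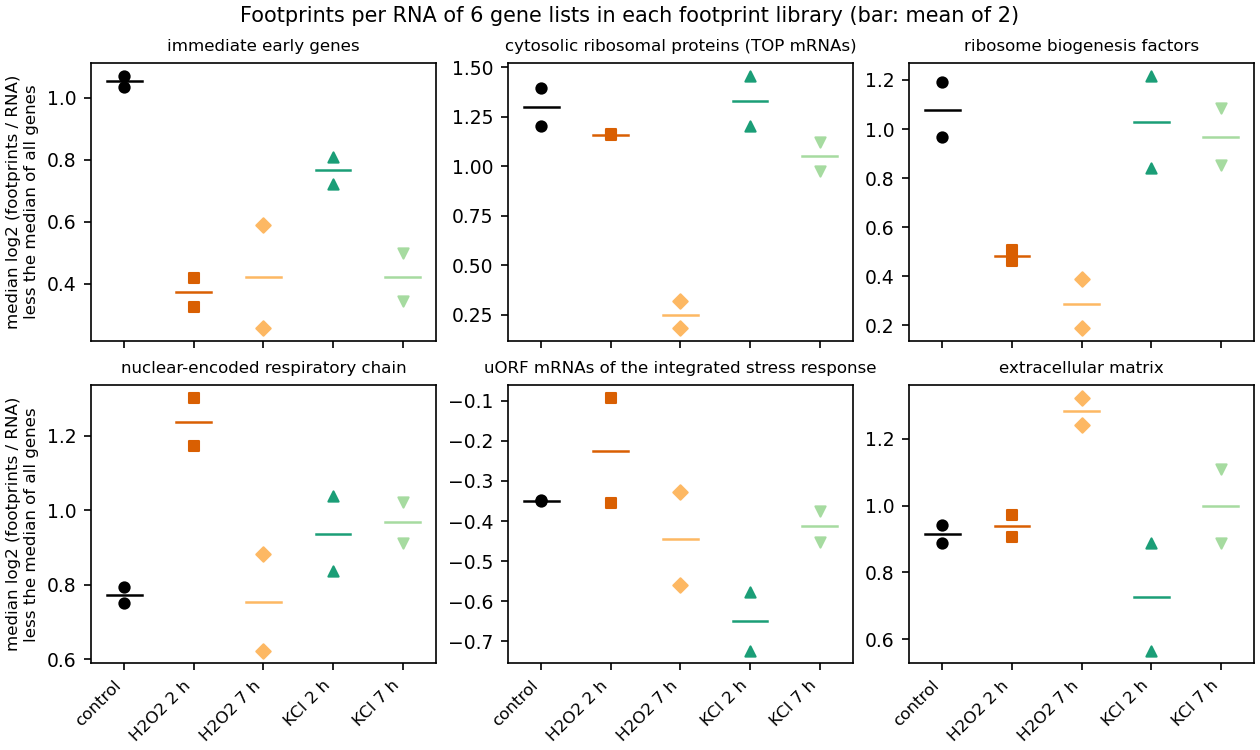
Median log2 ratio of footprints to RNA of 6 gene lists, less the median of all genes, in each of the 10 footprint libraries, with bars at the mean of 2 replicates. Immediate early genes are highest in the control, ribosome biogenesis factors are lower in both H2O2 groups than in the control and KCl groups, and ribosomal protein mRNAs are lowest at 7 h of H2O2.

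Of 36 initiation factors 3 were called lower (8.33%, near the 7.98% of all genes) and none higher, with a median of -0.26. The lower count ran from 1 without the first control RNA library to 7 without the second H2O2 footprint library. Eif5, which triggers GTP hydrolysis by eIF2 at the start codon, changed by -0.80 ± 0.18 (adjusted p = 0.00774, edgeR), with footprints at 172 and 169 CPM and then 150 and 162 CPM and RNA rising from 387 and 386 to 600 and 629 CPM. Denr (-0.65 ± 0.16) acts in reinitiation, and Eif3a (-0.58 ± 0.18), a subunit of eIF3, was not called by the weighted fit. Of 27 translation regulators 5 were lower (18.5%, against 7.98% of all genes) and 2 higher (7.41%, against 3.9%). The weighted fit called 3 of the regulators lower and 2 higher. The lower count fell when some single libraries were left out, and the median TE change then ran from -0.26 to -0.08. Larp1, Larp4 and Larp4b of the polyA-binding and LARP list are also among the regulators, as is Ppp1r15b, which is named again below. Eef2k, the kinase that inhibits elongation factor 2, had 13.6 and 22.9 footprint CPM in the control and 33.2 and 28.9 CPM under H2O2, with RNA falling from 59.8 and 59.7 to 40.9 and 40.6 CPM (TE 1.29 ± 0.26, adjusted p = 0.00452, edgeR). Ddit4, an inhibitor of mTOR complex 1, had 32.3 and 32.1 CPM in the control and 86.0 and 89.7 CPM under H2O2, with RNA between 53.4 and 69.0 CPM in the 4 libraries (TE 1.24 ± 0.25).

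Messages with upstream open reading frames that respond to eIF2 phosphorylation were split. Of 20 tested, 3 were called higher (15%, against 3.9% of all genes) and 5 lower (25%, against 7.98%). The median TE change was 0.36, the median footprint change 0.87 and the median RNA change 0.48. Atf4, the transcription factor at the centre of the integrated stress response, had 43.7 and 49.7 footprint CPM in the control and 271 and 237 CPM under H2O2. Its RNA rose from 245 and 229 to 576 and 560 CPM, and TE changed by 1.18 ± 0.23 (adjusted p = 0.00307, edgeR), called in all 19 alternatives. TE of Atf4 was higher than at 7 h of H2O2 (difference 0.86, adjusted p = 0.0269) and than at 2 h of KCl (difference 1.09, adjusted p = 0.00873), both by edgeR.

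Slc35a4, whose leader encodes a small mitochondrial protein, had 4.47 and 8.10 footprint CPM in the control and 39.3 and 13 CPM under H2O2 (TE 2.06 ± 0.46, adjusted p = 0.008, edgeR). The deposited counts are per gene and do not separate footprints on a leader from those on the main frame. The call for Slc35a4 was lost without the first control footprint library (1.65, adjusted p = 0.0509, edgeR). Ibtk, an inhibitor of Bruton tyrosine kinase, changed by 1.34 ± 0.25 with RNA nearly level, from 61.3 and 59.4 to 62.5 and 68.9 CPM. Atf5 (1.47 ± 0.48, adjusted p = 0.0558, edgeR) and Ddit3 (1.05 ± 0.42, adjusted p = 0.112, edgeR) were not called, and Ddit3 had 17 control footprint counts. Ppp1r15a, which encodes the eIF2 phosphatase subunit GADD34, was at 0.29 ± 0.39, with footprints rising by 3.21 and RNA by 2.81. Called lower were Ifrd1 (-1.06 ± 0.23), Slc7a1 (-1.05 ± 0.23), Rcan1 (-0.89), Eprs (-0.68) and Ppp1r15b (-0.66), of which the weighted fit did not call Rcan1 and Ppp1r15b. Cebpa had no footprint counts in the control and 6 in 1 H2O2 library, so no fold is given.

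ATF4 target genes, which serve amino acid uptake and tRNA charging, rose in RNA rather than in TE. Of 33 tested, RNA was higher for 29 and footprints for 10, and TE was higher for 1 (Ddit4) and lower for 5. The 5 are 15.2% of the list, against 7.98% of all genes, and the median TE change was -0.26. The lower count was 1 without the first control footprint library, 2 without either control or the second H2O2 RNA library, 3 without the first H2O2 library of either kind, and 10 without the second H2O2 footprint library. Sesn2, a stress sensor that restrains mTOR, followed its RNA: footprints went from 10.4 and 12.3 to 116 and 138 CPM and RNA from 12.4 and 14.6 to 196 and 180 CPM (TE -0.29 ± 0.27, not called). Atf3, a stress-induced transcription factor, rose by 3.55 in footprints and 5.06 in RNA (TE -1.52 ± 0.41, adjusted p = 0.0238 by edgeR and 0.0534 by the weighted limma fit). Of 23 tRNA synthetases, Eprs was the only call, lower in TE (4.35%, against 7.98% of all genes). It was called in 10 of 19 alternatives, and 18 of the 23 genes were below 0. Leaving out single libraries gave 0 to 5 called lower, with 5 without the second H2O2 footprint library.

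**Figure D4:**
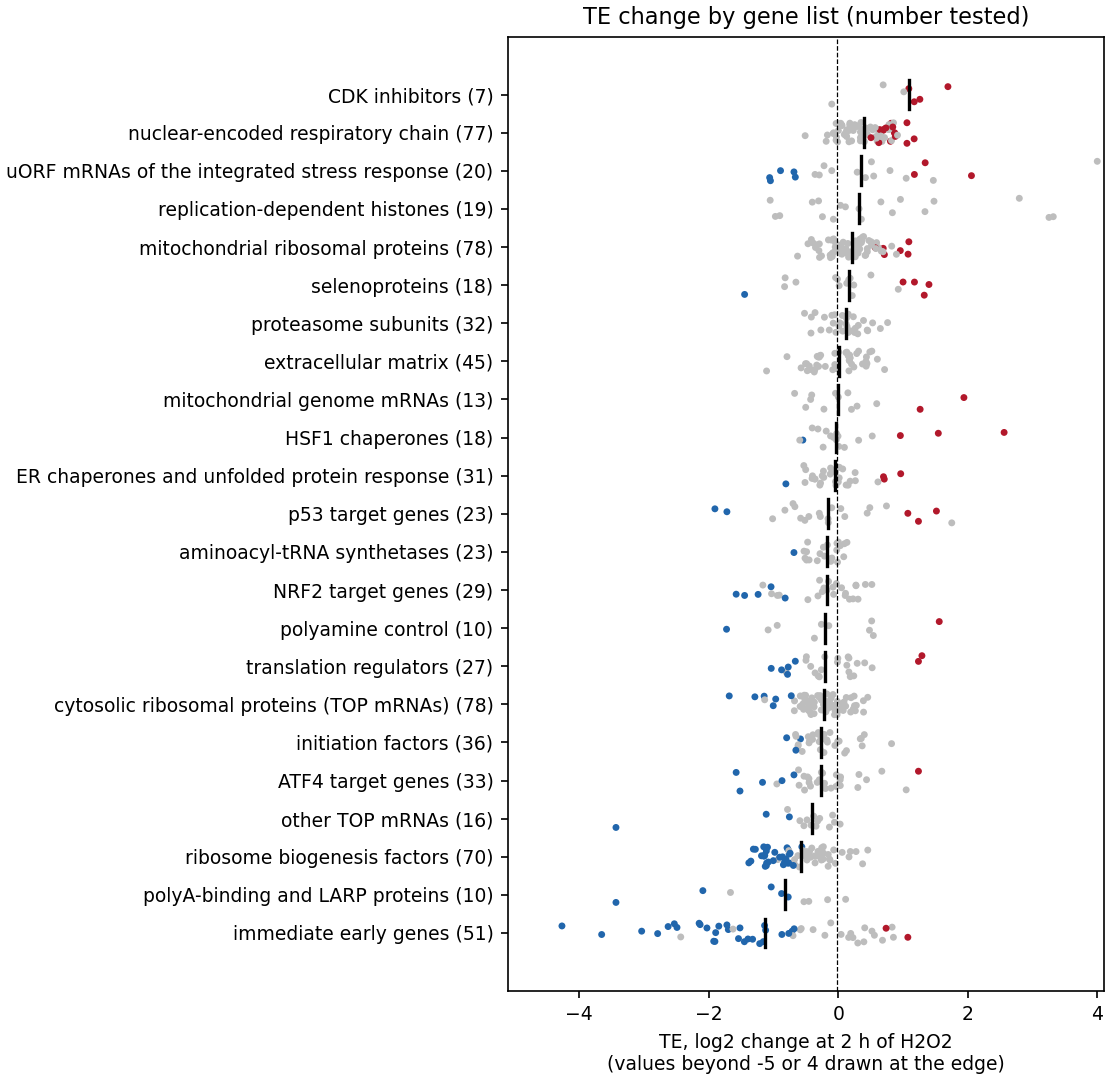
TE change at 2 h of H2O2 of each tested member (points, called lower in blue, called higher in red) by gene list, with black bars at the list medians and the dashed line at the median of all genes. Among the lists drawn, which leave out marker lists and lists under 5 tested genes, immediate early genes have the lowest median (-1.14), and CDK inhibitors (1.09) and nuclear-encoded respiratory chain subunits (0.40) the highest.

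Of 29 antioxidant genes controlled by NRF2, RNA was higher for 12 and lower for 3, with a median change of 0.09. Footprints were higher for 2, and TE was lower for 5 (17.2%, against 7.98% of all genes) and higher for none, with a median of -0.17. Txnrd1, the cytosolic thioredoxin reductase, had 303 and 424 footprint CPM in the control and 398 and 404 CPM under H2O2, although its RNA rose from 397 and 427 to 1269 and 1211 CPM (TE -1.45 ± 0.24, adjusted p = 0.00115, edgeR). Gclc, which catalyses the rate-limiting step of glutathione synthesis, had 21.8 and 26.5 CPM in the control and 25.1 and 28.1 CPM under H2O2, with RNA going from 40.0 and 39.0 to 93.3 and 89.5 CPM (TE -1.04 ± 0.18). The cystine transporter Slc7a11 rose in both, from 15.6 and 9.49 to 41.3 and 85.0 footprint CPM and from 8.61 and 9.38 to 137 and 152 RNA CPM (TE -1.58 ± 0.37), a call lost without the first control footprint library (-1.13, adjusted p = 0.162, edgeR). The glutathione conjugate exporter Abcc1 changed by -0.82 ± 0.15. Fth1, the ferritin heavy chain, whose leader holds an iron-responsive element, had 119 and 129 footprint CPM in the control and 27.8 and 75.5 CPM under H2O2 with RNA between 618 and 683 CPM (TE -1.24 ± 0.32). Its call was lost without the first or second control RNA library (adjusted p = 0.0612 and 0.0522, edgeR) and without the second H2O2 RNA library (0.0598). It was the single call among 4 mRNAs tested with a 5′ iron-responsive element, whose median was -0.94. That median ran from -1.15 without the first control footprint library, with 2 called, to -0.41 without the second, and TE of Fth1 was -0.82 without the first and -2.26 without the second H2O2 footprint library.

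Of 18 selenoproteins, which read UGA as selenocysteine, 4 were called higher, 1 (Txnrd1) lower and 13 neither. The 4 are 22.2% of the list, against 3.9% of all genes called higher. The higher count was 1 without the first footprint library of either group or the second H2O2 RNA library, 2 without the second control footprint library or any other RNA library, and 5 without the second H2O2 footprint library. The glutathione peroxidase Gpx1 had 54.3 and 60.3 footprint CPM in the control and 162 and 107 CPM under H2O2, with RNA at 121, 117, 109 and 107 CPM (TE 1.33 ± 0.23, adjusted p = 0.00146, edgeR). Gpx4, which reduces lipid peroxides, had 109 and 175 CPM in the control and 337 and 197 CPM under H2O2 (TE 1.18 ± 0.30), and its call was lost without the first H2O2 footprint library (adjusted p = 0.0721, edgeR), the first control footprint library (0.0687) or the second H2O2 RNA library (0.0589). Selenoh (1.40 ± 0.40) and Sephs2 (1.00 ± 0.28) were not called by the weighted fit.

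Some nuclear-encoded mitochondrial genes had higher TE. Of 77 subunits of the respiratory chain and ATP synthase, 16 were called higher (20.8%, against 3.9% of all genes) and none lower. Their median TE change was 0.40, and 67 were above 0. Their RNA was called lower for 40 and higher for none, and footprints were called higher for 1. The weighted fit called 13. The count was 3 to 5 without any 1 RNA library, 10 without the first control or first H2O2 footprint library, and 24 without the second H2O2 footprint library. Ndufs7, a subunit of complex I, had 82.1 and 112 footprint CPM in the control and 222 and 136 CPM under H2O2 (TE 1.17 ± 0.25, adjusted p = 0.00679, edgeR). Ndufa7, also of complex I, had 43.2 and 48.9 CPM in the control and 90.1 and 87.0 CPM under H2O2, with RNA at 55.7, 56.7, 52.1 and 51.3 CPM (TE 1.06 ± 0.20). Ndufa2 (0.87 ± 0.22) and Ndufc2 (0.76 ± 0.17) were further complex I calls.

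Mitochondrial ribosomal proteins had a median TE change of 0.21 at 2 h of H2O2 and of 0.29 at 2 h of KCl, with a median difference of -0.10. Under H2O2 6 of 78 were called higher (7.69%, against 3.9% of all genes) and none lower. The weighted fit called none of them, and the count ran from 0 to 10 when single libraries were left out, being 0 without the first H2O2 footprint library, the first control RNA library or the second H2O2 RNA library, and 10 without the second H2O2 footprint library. Of the 13 mRNAs of the mitochondrial genome, which mitochondrial ribosomes translate, ATP8 and ND4L were called higher and none lower, but 5 were called lower without the second H2O2 footprint library. ATP8, which overlaps the ATP6 frame on the same transcript, had 22.6 and 12.8 footprint CPM in the control and 39.9 and 63.5 CPM under H2O2 (TE 1.94 ± 0.35). ND4L (1.26 ± 0.26) overlaps ND4, which was at -0.67 ± 0.33 and not called. Reads of such overlapping frames can be divided between genes, so these single values are uncertain.

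Transcript length moved with TE. Genes were divided into 5 classes of equal size by relative transcript length, taken from the ratio of deposited RNA counts to TPM after values had been seen. The median TE change was 0.22, 0.09, 0.00, -0.11 and -0.27 from the shortest to the longest class. In the shortest class 165 genes (7.9%) were called higher and 51 (2.44%) lower, and in the longest 27 (1.29%) and 318 (15.2%). Footprints in each H2O2 library showed the gradient, with medians of 0.15 and 0.12 in the shortest class and of -0.24 and -0.19 in the longest. The gradient was not particular to H2O2. Against the same control, median TE changes at 2 h of KCl were 0.13, 0.08, 0.01, -0.09 and -0.32. The median differences of H2O2 from KCl were 0.07, -0.01, -0.03, -0.004 and 0.07. At 7 h of H2O2 the medians were 0.03, 0.04, 0.08, 0.12 and 0.11. The part of length in the list values was not tested.

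**Figure D5:**
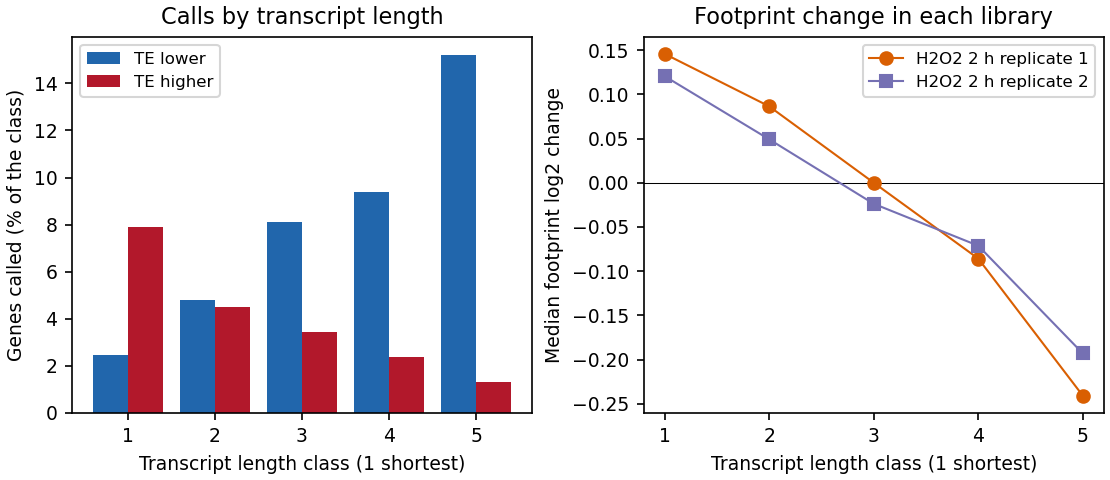
Left, percent of genes called lower (blue) or higher (red) in TE in each class of relative transcript length, with 2089 genes a bar pair; right, median footprint log2 change over the control mean in each H2O2 library. Calls of lower TE rise from 2.44% in the shortest to 15.2% in the longest class.

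Of 10 polyamine control genes, 1 was called lower and 1 higher (10% each, against 7.98% and 3.9% of all genes). Odc1, ornithine decarboxylase, the rate-limiting enzyme of polyamine synthesis, had 230 and 262 footprint CPM in the control and 56.9 and 130 CPM under H2O2, with RNA going from 264 and 281 to 359 and 365 CPM (TE -1.72 ± 0.31, adjusted p = 0.00182, edgeR). Oaz1, the antizyme that sends ornithine decarboxylase to the proteasome and needs a ribosomal frameshift, had 95 and 128 CPM in the control and 324 and 247 CPM under H2O2, with RNA at 360, 382, 331 and 308 CPM (TE 1.56 ± 0.28, adjusted p = 0.00195, edgeR). The groups did not overlap for either gene, and both calls held in all 19 alternatives. The other 8 genes were not called.

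Of 18 HSF1-dependent chaperones 3 were called higher (16.7%, against 3.9% of all genes) and 1 lower (5.56%, against 7.98%). The lower count changed when single libraries were left out. Hspa1a, an inducible HSP70 gene, had the largest rise of TE by the rule for named genes, with 16.4 and 12.6 footprint CPM in the control and 42.0 and 90.5 CPM under H2O2 (TE 2.56 ± 0.47, adjusted p = 0.00227, edgeR). Its RNA was at 27.8 and 29.3 CPM in the control and 32.6 and 15.1 CPM under H2O2, so the H2O2 RNA libraries lay on either side of the control. Hspa1b (1.55 ± 0.31) is a near-identical copy, and how reads were divided between them can alter both values. The small heat shock protein Cryab changed by 0.96 ± 0.20. Hspa8, the constitutive HSP70, was called lower (-0.55 ± 0.17, adjusted p = 0.0495, edgeR) and under 4 of 19 alternatives only.

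Of 23 p53 targets 3 were called higher (13.04%, against 3.9% of all genes) and 2 lower (8.7%, near the 7.98% of all genes). Both counts changed when some single libraries were left out, and the median TE change then ran from -0.36 to -0.03. Phlda3 (1.52 ± 0.28), an inhibitor of Akt, and Ddit4 rose in both fits, and Gadd45a (1.07 ± 0.34) rose in the edgeR fit. The kinases Plk2 (-1.72 ± 0.24) and Plk3 (-1.90 ± 0.34) fell, both also being immediate early genes. Plk2 had 607 and 515 footprint CPM in the control and 1511 and 1593 CPM under H2O2, against RNA of 190 and 209 and then 1754 and 1876 CPM. Cdkn1a, the p21 cell cycle inhibitor, followed its RNA (TE -0.10 ± 0.26).

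Among 7 CDK inhibitors, a list added after values had been seen, 4 were called higher (57.1%, against 3.9% of all genes) and none lower. The median was 1.09, and it ran from 0.74 to 1.48 when single libraries were left out. Cdkn2a had 494 and 438 footprint CPM in the control and 1075 and 773 CPM under H2O2, with RNA at 366 and 394 and then 339 and 287 CPM (TE 1.26 ± 0.22, adjusted p = 0.0013, edgeR). Cdkn2d (1.69 ± 0.28) and Cdkn1b (1.17 ± 0.22), which encode p19INK4d and p27, had RNA changes of -0.89 and -0.98, and footprint changes of 0.89 and 0.26. Cdkn2b (1.09 ± 0.30) was not called by the weighted fit. Of 31 ER chaperones and unfolded protein response genes, Sdf2l1 (0.96 ± 0.21), Ssr2 (0.71 ± 0.20) and Sec61b (0.70 ± 0.20) were called higher and Xbp1 (-0.81 ± 0.24) lower. Sec61b and Xbp1 were not called by the weighted fit. Ssr2 lost its call when only the 8 libraries entered the fit (adjusted p = 0.0882, edgeR) and under further alternatives. The edgeR calls of the list are 9.68% higher and 3.23% lower, against 3.9% and 7.98% of all genes. Without the second H2O2 footprint library 10 genes of that list were called lower.

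The remaining large rises were on messages with few footprints or falling RNA. Pif1, a DNA helicase, had 4.71 and 7.26 footprint CPM in the control and 10.2 and 6.89 CPM under H2O2, while its RNA fell from 35.1 and 38.1 to 9.19 and 10.9 CPM (TE 2.24 ± 0.39). The homeobox genes Hoxa9 (1.95 ± 0.52) and Hoxa10 (1.90 ± 0.32) lost RNA, by 2.27 and 2.13 on the log2 scale, with footprints changing by -0.24 and -0.07. Fzd2, a Wnt receptor, had 96.5 and 138 footprint CPM in the control and 239 and 141 CPM under H2O2, and RNA fell from 122 and 131 to 56.2 and 61.2 CPM (TE 1.76 ± 0.28). Ankle1, an endonuclease (2.15 ± 0.41), Cacna1a, a calcium channel subunit (1.95 ± 0.42), and Nog, the BMP antagonist noggin (1.93 ± 0.38), had 24 to 54 control footprint counts. Zfp579, a zinc finger gene (2.42 ± 0.65), lost its call without the first H2O2 footprint library (1.57, adjusted p = 0.154, edgeR). Hoxa9 also lost its call without either H2O2 footprint library (adjusted p = 0.0636 and 0.0736, edgeR).

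Histone mRNAs mostly lack polyA tails, so polyA selection recovers them poorly and a TE value for them is hard to read. Hist1h2ap (1.95 ± 0.47) had 134 and 197 footprint CPM in the control and 244 and 88.3 CPM under H2O2, groups that overlap, and its call was lost without the first H2O2 footprint library (1.13, adjusted p = 0.0552, edgeR). None of 19 listed replication-dependent histones was called by edgeR (median 0.32), and 2 had an unadjusted p under 0.05. Their median was -0.27 without the first and 0.79 without the second H2O2 footprint library, with 3 called higher in the latter case. Extracellular matrix genes (45 tested, median 0.01) and proteasome subunits (32 tested, median 0.12) also had no call by edgeR, with 9 and 6 genes at an unadjusted p under 0.05, and the weighted fit called 1 gene in each higher. Without the second H2O2 footprint library 2 matrix genes were called higher and 3 lower, and 3 proteasome genes each way.

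Some TE changes occurred with RNA nearly level, where the RNA term contributes little. Of 4707 genes with an absolute RNA change under 0.2, a set taken after values had been seen, 246 were called lower (5.23%, against 7.98% of all genes) and 77 higher (1.64%, against 3.9%), with a median TE of -0.04. The weighted fit called 120 lower and 35 higher. Beside Pabpc1 and Rpsa, examples chosen after their values were seen are Cdk6 and Leng8. Cdk6, a cyclin D kinase, went from 65.3 and 61.1 to 27.8 and 27.9 CPM (TE -1.37 ± 0.19, adjusted p = 0.000243, edgeR). Leng8 rose from 52.1 and 46.3 to 142 and 132 CPM, with RNA at 136, 154, 169 and 159 CPM (TE 1.29 ± 0.18, adjusted p = 0.000267, edgeR). Its footprint to RNA ratio was 0.862 and 0.806 at 2 h of H2O2 and between 0.191 and 0.359 in the other 8 footprint libraries.

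Read-in transcription, in which transcription from an upstream gene runs into its neighbour, can add RNA that is not translated. Of genes the authors called as read-in in both H2O2 RNA libraries at 2 h and in neither control library, 64 were tested. Their median TE change was 0.13, with 1 called higher and 1 lower. Each is 1.56% of the set, against 3.9% of all genes called higher and 7.98% called lower. The lower call was Aoc3, with 13 control footprint counts (-3.66 ± 0.96). The higher call was Rex1bd (1.197 ± 0.22), and the other 7 of the 8 named by size of change were not called, the lowest of them being Fam98c (-1.71 ± 0.56, adjusted p = 0.0532, edgeR). With a call in either library, 117 genes had a median of 0.12, with 6 called higher (5.13%) and 4 lower (3.42%).

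TE at 2 h of H2O2 was tested directly against 7 h of H2O2 and against 2 h of KCl, comparisons in which the control libraries cancel. Against 7 h, 215 genes were higher at 2 h (2.06%) and 594 lower (5.68%), with a median over all genes of -0.10. Against KCl, 307 genes were higher under H2O2 (2.94%) and 220 lower (2.1%), with a median of 0.02. Both counts depended on single libraries: 151 without the first RNA library of H2O2 at 7 h and 1404 without the second footprint library of H2O2 at 2 h for the former, and 201 without the second footprint library of KCl at 2 h and 723 without the second footprint library of H2O2 at 2 h for the latter. Any 1 RNA library left out, of either condition, brought the counts to 151 to 371 and to 232 to 299, and either footprint library of H2O2 at 7 h left out brought the former to 395 and 407. The weighted fit called 350 and 240 genes.

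Of the 51 immediate early genes, 6 were lower at 2 h than at 7 h of H2O2 and none higher, with a median difference of -0.22, beside 5.68% of all genes lower. Against KCl at 2 h, 6 were lower and 1 higher, with a median of -0.33, beside 2.1% of all genes lower. Fosl1, an AP-1 subunit, was lower than under KCl by 1.59 on the log2 scale (adjusted p = 0.0027, edgeR), as were Myc (-1.19, adjusted p = 0.0204) and Plk2 (-1.43, adjusted p = 0.00245). Ptgs2 differed from 7 h by -0.74 (adjusted p = 0.102) and from KCl by -0.88 (adjusted p = 0.0701), and was called in neither. Rpsa (-1.30, adjusted p = 0.0027), Rpl12 (-1.17, adjusted p = 0.0213) and Fth1 (-1.71, adjusted p = 0.0051) were lower under H2O2 than under KCl, and Slc35a4 was higher (3.32 ± 0.60, adjusted p = 0.00393), all by edgeR.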

How the data were processed

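Per the submitters' processing notes, reads were handled with STAR, RSEM and Bowtie on mm10; the sources used here give no versions, roles or footprint length filters. Deposited by the authors were expected counts (whole numbers) and TPM values per gene and library; TPM was used for marker levels, for 2 alternatives and, with counts, for relative transcript length. The authors also deposited true or false read-in calls per pair of neighbouring genes and RNA library. Footprint tables held 12 further columns with no matching label, left out here. Rows carrying 2 symbols of the same gene were summed (99 genes, 200 rows), using a RefSeq gene table of GRCm38.p6, which also gave the start sequences; 19885 of 20430 symbols matched.

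TE was fitted with edgeR 4.0.16 (R 4.3.3, quasi-likelihood F test) on the counts of 20 libraries, the 10 footprint and 10 RNA libraries with H2O2, KCl or their control, with TMM factors and filterByExpr applied within each kind, and Benjamini-Hochberg adjustment over all 10457 genes, at 0.05. Footprint and RNA changes came from separate fits. The alternatives used limma 3.58.1 and DESeq2 1.42.0, other scalings, filters and blocks, and left out each library. The fits were tested on simulated data, in which the share of false calls exceeded the threshold. All TE calls are therefore to be read with care, above all those near the threshold. The labels do not say whether replicates were separate cultures, and p-values measure the spread between these samples. The edgeR fit of TE used a common spread per gene for footprint and RNA libraries, although footprint replicates correlated less. Its SE and p-values for TE may therefore be too small. Deviations of footprint and RNA libraries with the same number correlated at 0.12 in the control and 0.04 at 2 h of H2O2 (-0.22 to 0.06 elsewhere). Between conditions, same-numbered footprint libraries correlated at -0.41 (control) to -0.04 in pairs with 2 h of H2O2. The other footprint pairs were at 0.19 to 0.44, and RNA libraries at -0.17 to 0.34. Not every pair was over 0.1, so the numbers were not taken to pair libraries. Pairing is not excluded.

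Named genes have at least 20 control footprint counts. They are the 12 largest rises and 12 largest falls called by edgeR and by the weighted limma fit with footprint to RNA ratios that do not overlap between groups, up to 4 members per list by smallest p, the 12 largest RNA rises, and the 8 read-in genes of largest TE change. Any other gene named, as an example or to spell out a count, was chosen after its values were seen. Members and lists were chosen with earlier results of these data known. Gene lists came from general knowledge and were described by counts and medians, without a set test.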

Additional observations from a re-analysis of the deposited data

Results flagged for a closer look

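Among the 24 genes of largest TE change, the difference between conditions was itself tested with edgeR as an interaction term. They were chosen by TE at 2 h of H2O2, whose libraries also enter these differences. The choice therefore favours differences in the direction of that change. Of all genes, 5.68% were lower and 2.06% higher at 2 h than at 7 h. Against KCl, 2.1% were lower and 2.94% higher. The difference passed an adjusted p of 0.05 for the following genes. Between 2 h and 7 h of H2O2, TE was lower at 2 h for Ccdc88c (-2.49 ± 0.62, adjusted p = 0.0235), Lif (-1.51 ± 0.40, adjusted p = 0.0311), Ptpn22 (-2.23 ± 0.64, adjusted p = 0.042), Pabpc1 (-1.80 ± 0.24, adjusted p = 0.000887) and Itga2 (-1.90 ± 0.48, adjusted p = 0.024). It was higher at 2 h for Ankle1 (1.85 ± 0.54, adjusted p = 0.0444), Slc35a4 (1.63 ± 0.49, adjusted p = 0.0499), Hist1h2ap (1.74 ± 0.49, adjusted p = 0.037) and ATP8 (1.39 ± 0.38, adjusted p = 0.0353).

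Between H2O2 and KCl at 2 h, TE under H2O2 was lower for Ccdc88c (-2.98 ± 0.67, adjusted p = 0.0162) and Pabpc1 (-1.64 ± 0.24, adjusted p = 0.00135). It was higher for Slc35a4 (3.32 ± 0.60, adjusted p = 0.00393), Hoxa9 (2.71 ± 0.53, adjusted p = 0.00676), Fzd2 (1.43 ± 0.28, adjusted p = 0.00676), Nog (1.41 ± 0.35, adjusted p = 0.0243), ATP8 (1.36 ± 0.34, adjusted p = 0.0266) and Hoxa10 (1.13 ± 0.31, adjusted p = 0.0422). Ccdc88c, Ptpn22 and Itga2 had at most 12 footprint counts in an H2O2 library at 2 h.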

How the results depend on the processing

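The count of 1242 TE calls was 578 with only the 8 libraries, 696 with weights per kind of library, 767 with limma on log2(TPM + 0.1) and 589 at an absolute log2 change of at least 1. Leaving out single libraries gave 613 to 1865. The footprint count of 211 was 324 without a filter, 45 with only the 4 libraries, 83 with limma on log2(TPM + 1), and 44 to 167 without single libraries. The RNA count of 7227 was 1757 at an absolute log2 change of at least 1 and 5638 to 6322 without single libraries. The count of 809 between 2 h and 7 h was 1303 with DESeq2, 350 with kind weights and 151 to 1404 without single libraries, and the count of 527 between H2O2 and KCl was 1066, 240 and 201 to 723. Blocking each culture, by its replicate number within a condition, gave 554, 167 and 168 TE calls in the 3 TE comparisons. A block on the number alone gave 1289 for TE, 223 for footprints and 7414 for RNA. Whether the numbers pair libraries is not known. The lower counts under the culture block are therefore a further limit on the TE calls. Without a filter the split of TE calls was 576 higher and 691 lower. Of 89 named genes called in TE, 53 were called in the same direction under all 19 alternatives and none reversed in any. The cause of these shifts was not tested. The first H2O2 footprint library held 1460751 counts and the second 5168537, and TE calls were 945 without the first and 1865 without the second; the part of depth was not tested. The lists, length classes and the set of genes with level RNA that are named as added were chosen after seeing the data.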
